A study of Mus musculus with 8 samples.

Results

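Esm1, Cd34 and the VEGF system were followed in the lungs of mice that carry a Fra-2 transgene and of their wild-type controls. The 10 genes were Esm1, Cd34, the growth factors Vegfa, Vegfb, Vegfc and Pgf, the receptors Kdr and Flt1, and the co-receptors Nrp1 and Nrp2, out of 20863 genes on the array. They were selected on their gene symbol, and all 25 of their spots are described, with the spot of highest mean over the 8 arrays standing for each gene. Esm1 and Cd34 head the set because they were chosen by their measured difference between these same 2 groups, so that difference is a description here and carries no test. The other 8 belong to the VEGF family and its receptors, and their differences are given in the same way.

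VEGF-A is the main growth factor of blood vessels, and in the lung it comes largely from alveolar epithelium. It signals through the receptor tyrosine kinase KDR on endothelial cells, while FLT1 binds it tightly and acts in part as a decoy. PGF and VEGF-B bind FLT1, VEGF-C acts through FLT4 and KDR and is best known for lymphatic vessels, and the neuropilins NRP1 and NRP2 are co-receptors that semaphorins also use. ESM1, or endocan, is a secreted dermatan sulphate proteoglycan of endothelial cells that VEGF-A induces, and a known marker of sprouting tip cells. CD34 is a sialomucin on the surface of endothelial cells, haematopoietic progenitors and some fibroblasts. Fra-2, the product of Fosl2, is a subunit of the AP-1 transcription factor.

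The study used lungs of 8 mice, each hybridised to 1 single-colour array, and asked how lung transcripts differ between the genotypes. The 4 control mice are labelled wild type and the 4 others Fra-2 over-expressing (Fra-2 TG). Both groups were on the C57BL/6 background, 8 weeks old, kept under standard conditions and given no treatment that the labels name. Which promoter drives the transgene, and how many founder lines were used, is not stated in the labels. Levels are log2 normalised intensities, and a difference is always the transgenic mean minus the wild-type mean on that scale. The median over all spots, 4.74, served as a floor under which a signal was taken as dim.

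Among all arrays, wild-type mouse 4 and transgenic mouse 4 stood somewhat apart, with a median correlation across spots of 0.966 and 0.971 with their own group against 0.976 to 0.977 for the other 6. The targeted gene, Fosl2, has a bright spot that was lower in transgenic lung (10.61 against 9.86) and a dim spot that was higher (4.52 against 6.97). On the bright spot the groups overlapped, with 3 of 4 transgenic mice below all wild-type mice, a difference of -0.75 (95% interval -1.47 to -0.04). On the dim spot, with 3 values under the floor, all 4 transgenic mice lay above all wild-type mice, a difference of 2.45 (95% interval 1.36 to 3.53). That is the direction of the label, but the spots disagree and which part of the transcript each reads is not known here. Alveolar type 2 cell genes, which define lung, were all measured (9 of 9), and 0 of them had a mean under the floor. In RNA from whole lung, fewer cells of a type and less RNA per cell cannot be told apart, which holds for every gene described here.

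The promoters of the 3 genes whose groups did not overlap, Esm1, Cd34 and Vegfc, are shown to let their base composition be compared. Each line gives the 250 bases before the RefSeq transcription start, 5′ to 3′ on the strand of the gene, with CG dinucleotides in capitals. The Esm1 stretch is chr13:113209409-113209658, the Cd34 stretch chr1:194938571-194938820 and the Vegfc stretch chr8:54077282-54077531, all on the plus strand of GRCm38.p6.
Esm1: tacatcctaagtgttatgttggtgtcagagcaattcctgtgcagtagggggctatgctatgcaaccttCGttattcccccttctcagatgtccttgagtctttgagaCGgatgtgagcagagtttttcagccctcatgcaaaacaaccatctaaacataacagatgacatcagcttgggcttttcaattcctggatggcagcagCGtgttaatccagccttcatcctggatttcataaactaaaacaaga
Cd34: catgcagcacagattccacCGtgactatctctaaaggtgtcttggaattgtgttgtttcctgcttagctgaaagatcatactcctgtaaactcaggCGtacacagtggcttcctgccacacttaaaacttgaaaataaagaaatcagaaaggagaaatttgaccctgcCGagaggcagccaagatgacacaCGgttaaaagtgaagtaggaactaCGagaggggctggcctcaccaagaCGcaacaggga
Vegfc: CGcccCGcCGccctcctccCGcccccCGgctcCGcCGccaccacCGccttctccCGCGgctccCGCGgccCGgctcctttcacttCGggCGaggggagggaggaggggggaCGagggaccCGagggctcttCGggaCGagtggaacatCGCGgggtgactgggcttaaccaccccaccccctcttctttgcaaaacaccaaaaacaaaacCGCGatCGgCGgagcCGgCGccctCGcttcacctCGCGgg

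Esm1 and Cd34 have AT-rich upstream stretches, whereas Vegfc has a CpG-rich one. The Esm1 stretch held 3 CG dinucleotides at 44.0% G and C, and the Cd34 stretch held 6 at 46.4%. The Vegfc stretch held 30 at 71.6%. The 9 other promoters of the set, with 2 start sites each for Vegfa and Pgf, ranged from 7 to 32 CG dinucleotides and from 59.2% to 76.4% G and C. Over all 32851 promoters in the RefSeq table the median was 6 CG dinucleotides and 52.4% G and C. Esm1 and Cd34 therefore lay below the median in G and C. By CG dinucleotides, 37.8% of promoters had no more than Esm1 and 53.7% no more than Cd34. As many as Vegfc or more were found in 5.9% of promoters.

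Fra-2 binds DNA as part of AP-1, so the same stretches were searched for the AP-1 motif TGANTCA, which reads the same on both strands. It occurred in 0 of the 12 promoters of the set, against 6.75% of all promoters. The related motif TGACGTCA, also the same on both strands, occurred in 1 of the 12, against 1.55% of all promoters. That promoter was the one of Flt1, where the match began at base -81 and a TATAAA match at base -31, counted from the start. TATAAA, searched on both strands, occurred in 1 of the 12 and in 12.37% of all promoters. On both strands, GGGCGG, the core of the GC box, occurred in 9 of the 12 against 32.74% of all promoters, in a set that is mostly rich in G and C. ACGTG, the core of the hypoxia response element, occurred in 1 of the 12, a Vegfa promoter, against 16.57%. These are matches of letters in a short window and say nothing of binding elsewhere.

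Esm1 was the gene of the set with the largest difference, and it was lower in transgenic lung. Its levels were 11.52, 11.58, 11.51 and 11.02 in wild-type mice 1 to 4 and 9.11, 9.98, 9.14 and 8.55 in transgenic mice 1 to 4. The groups did not overlap, and the highest transgenic value, that of mouse 2, was still below the lowest wild-type value, that of mouse 4. The means were 11.41 ± 0.26 and 9.19 ± 0.59 (SD, n = 4 each), a difference of -2.21 (SE 0.29, 95% interval -2.88 to -1.55), or 4.64-fold lower. Only 0.168% of the 14312 genes with a mean above the floor had a larger absolute difference. In both groups mouse 4 had the lowest Esm1 level. A single spot reads Esm1, so no other spot could be set beside it.

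Cd34 went the other way. Its brighter spot stood at 13.18, 13.08, 13.22 and 13.77 in wild-type mice 1 to 4 and at 14.83, 15.01, 15.21 and 14.88 in transgenic mice 1 to 4. All 4 transgenic mice lay above all 4 wild-type mice, 14.98 ± 0.17 against 13.31 ± 0.31 (SD, n = 4 each), a difference of 1.67 (SE 0.18, 95% interval 1.26 to 2.08), or 3.18-fold higher. Its transgenic levels stayed under the top of the scale, 16. The dimmer Cd34 spot read 7.29, 7.28, 7.37 and 6.20 across wild-type mice, against 8.78, 8.89, 9.27 and 8.88 across transgenic mice. It differed in the same direction by 1.92 (SE 0.27), again without overlap. The 2 spots disagreed on wild-type mouse 4, which was the highest of its group on the brighter spot and the lowest on the dimmer one.

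**Figure D1:**
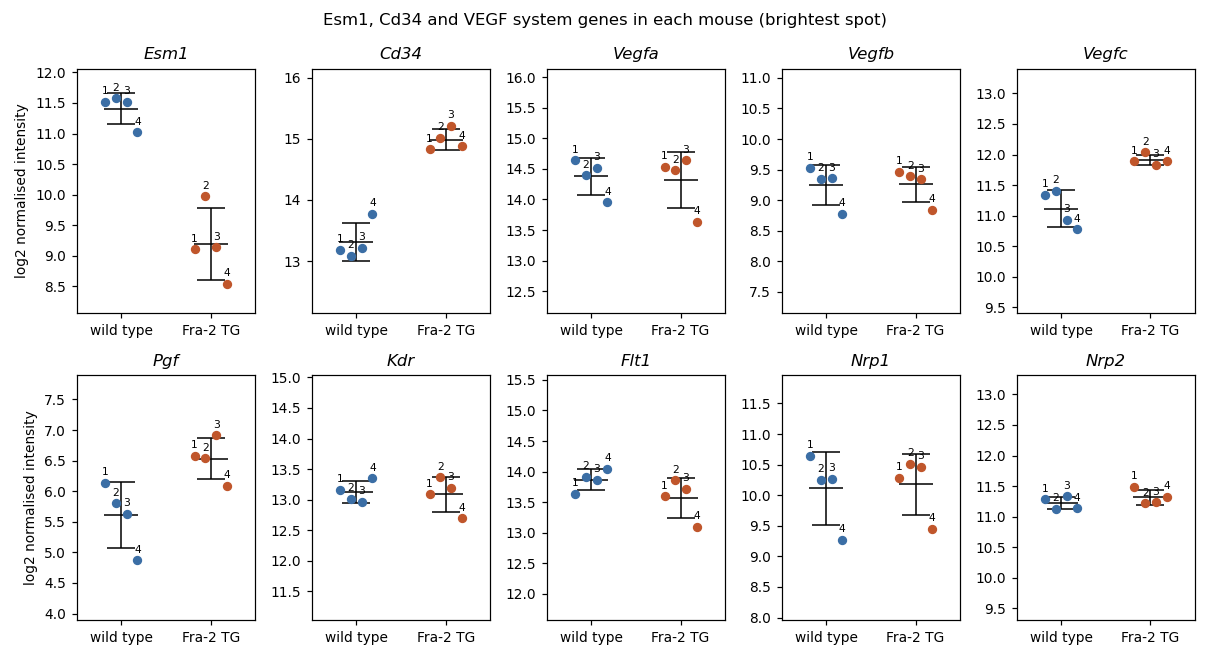
Log2 normalised intensity (vertical axis) of the brightest spot of each of the 10 genes in 4 wild-type (blue) and 4 Fra-2 TG mice (orange); digits are mouse numbers, and bars give the group mean and 1 SD, with each panel spanning 4 log2 units. Esm1, Cd34 and Vegfc show groups that do not overlap, while mouse 4 is the lowest of both groups for Esm1, Vegfa, Vegfb, Pgf and Nrp1.

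Of the 10 genes, 2 passed the threshold in the fit over all genes (limma, Benjamini-Hochberg adjusted p under 0.05), Cd34 higher and Esm1 lower, against 0.216% of all genes (0.125% higher and 0.0911% lower). Since these 2 were picked for that difference, nothing is read from the count. It became 0 with the mouse number as a block, and also when wild-type mouse 1, 2 or 3 or transgenic mouse 3 was left out. It was 1 when any of the other 4 mice was left out, namely Esm1 without transgenic mouse 2 and Cd34 without wild-type mouse 4 or transgenic mouse 1 or 4. The differences themselves ran from -2.475 to -1.999 for Esm1 and from 1.59 to 1.82 for Cd34 with 1 mouse left out. The groups did not overlap in 3 of the 10 (2 higher, 1 lower), against 6.53% of all genes (3.99% higher and 2.54% lower), and this count includes the same 2.

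Among the ligands, Vegfc and Pgf were higher in transgenic lung, while the differences of Vegfa and Vegfb on their brightest spots were smaller than their SDs. Vegfc, the lymphatic growth factor, read 11.34, 11.41, 10.94 and 10.78 across wild-type mice 1 to 4, against 11.89, 12.04, 11.83 and 11.89 across transgenic mice 1 to 4. The transgenic mice were tightly grouped and all above the wild-type mice. The means were 11.12 ± 0.31 and 11.91 ± 0.09 (SD, n = 4 each), a difference of 0.80 (SE 0.17, 95% interval 0.41 to 1.18), or 1.74-fold. It was not among the genes past the threshold. With 1 mouse left out the difference ran from 0.68 to 0.89.

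Pgf, the placental growth factor, was the dimmest gene of the set on its own spot, although no value lay under the floor. Its levels were 6.14, 5.80, 5.63 and 4.87 in wild-type mice and 6.57, 6.54, 6.91 and 6.09 in transgenic mice. Transgenic mice 1 to 3 lay above all wild-type mice, and transgenic mouse 4 lay just under wild-type mouse 1. The means were 5.61 ± 0.54 and 6.53 ± 0.34 (SD, n = 4 each), a difference of 0.92 (SE 0.29, 95% interval 0.26 to 1.58). It did not pass the threshold either. Adding an offset of 32 to the intensities before the log2, which shrinks changes of dim genes, brought it to 0.61.

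Vegfa, the principal ligand, was read by 3 spots. On the brightest, wild-type mice stood at 14.64, 14.39, 14.52 and 13.95 and transgenic mice at 14.53, 14.48, 14.64 and 13.64. The groups overlapped, with mouse 4 lowest in both, and the means of 14.38 ± 0.30 and 14.32 ± 0.46 (SD, n = 4 each) differed by -0.06 (SE 0.25, 95% interval -0.64 to 0.53). The second spot gave -0.03 (SE 0.26). The third and dimmest spot, annotated to another transcript variant, gave -0.43 (SE 0.20, 95% interval -0.89 to 0.04), with levels of 13.69, 13.51, 13.24 and 13.55 against 13.28, 13.28, 13.21 and 12.51. On that spot 2 of the 4 transgenic mice lay below all wild-type mice.

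Vegfb, a ligand of FLT1, showed the smallest difference of the set. Its levels were 9.53, 9.35, 9.36 and 8.78 in wild-type mice and 9.46, 9.39, 9.34 and 8.84 in transgenic mice, a nearly identical pattern by mouse number. The means were 9.25 ± 0.33 and 9.26 ± 0.28 (SD, n = 4 each), and the difference was 0.01 (SE 0.21, 95% interval -0.47 to 0.48). The interval leaves room for a change of up to 0.48 in either direction. Of the genes with a mean above the floor, 97.1% had a larger absolute difference than Vegfb, 79.8% than Vegfa, 2.90% than Vegfc and 2.02% than Pgf.

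On the brightest spot of each receptor the interval of the difference held 0. Kdr, the main signalling receptor, read 13.17, 13.02, 12.97 and 13.35 across wild-type mice, against 13.09, 13.37, 13.19 and 12.70 across transgenic mice on its brightest spot. The means were 13.13 ± 0.17 and 13.08 ± 0.28 (SD, n = 4 each), a difference of -0.04 (SE 0.17, 95% interval -0.43 to 0.35). Transgenic mouse 4 was the lowest of the 8 mice and wild-type mouse 4 nearly the highest. Without both mice numbered 4 the sign turned, to 0.16.

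Kdr was read by 11 spots, which gives a view of the spread of the array itself. The 10 brighter spots had means between 12.67 and 13.11 and differences between -0.13 and -0.04, and transgenic mouse 4 was the lowest mouse on all 10. The last spot was dimmer and gave -0.35 (SE 0.15, 95% interval -0.69 to -0.003), reading 11.25, 11.26, 10.85 and 11.38 across wild-type mice against 10.90, 10.98, 10.79 and 10.68 across transgenic mice. All 11 spots had a negative sign. Whether these spots hold the same probe could not be seen from the files, so they are not counted as independent readings.

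Flt1, the decoy-like receptor, read 13.64, 13.91, 13.87 and 14.04 across wild-type mice, against 13.60, 13.86, 13.72 and 13.10 across transgenic mice. The groups overlapped, and transgenic mouse 4 lay well below the rest. The means were 13.87 ± 0.17 and 13.57 ± 0.33 (SD, n = 4 each), a difference of -0.30 (SE 0.18, 95% interval -0.72 to 0.13) that came to -0.08 without both mice numbered 4. A second Flt1 spot, annotated to a cDNA clone rather than a RefSeq transcript, lay under the floor on 6 of 8 arrays and gives no level.

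For both neuropilins the interval of the difference held 0. Nrp1, co-receptor for VEGF-A and semaphorins, stood at 10.65, 10.26, 10.27 and 9.27 in wild-type mice and at 10.28, 10.51, 10.46 and 9.45 in transgenic mice. Mouse 4 was far below the other 3 in both groups, which gave Nrp1 the widest interval of the set. The difference was 0.07 (SE 0.34, 95% interval -0.72 to 0.85). Nrp2, the co-receptor associated with VEGF-C, was the most even gene, at 11.29, 11.13, 11.34 and 11.14 in wild-type mice and 11.48, 11.22, 11.23 and 11.33 in transgenic mice. It differed by 0.09 (SE 0.12, 95% interval -0.18 to 0.36). A dimmer Nrp2 spot, annotated to another transcript variant, gave 0.31 (SE 0.21), with wild-type mouse 4 at 7.58 and its group mates at 8.32 to 8.48.

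**Figure D2:**
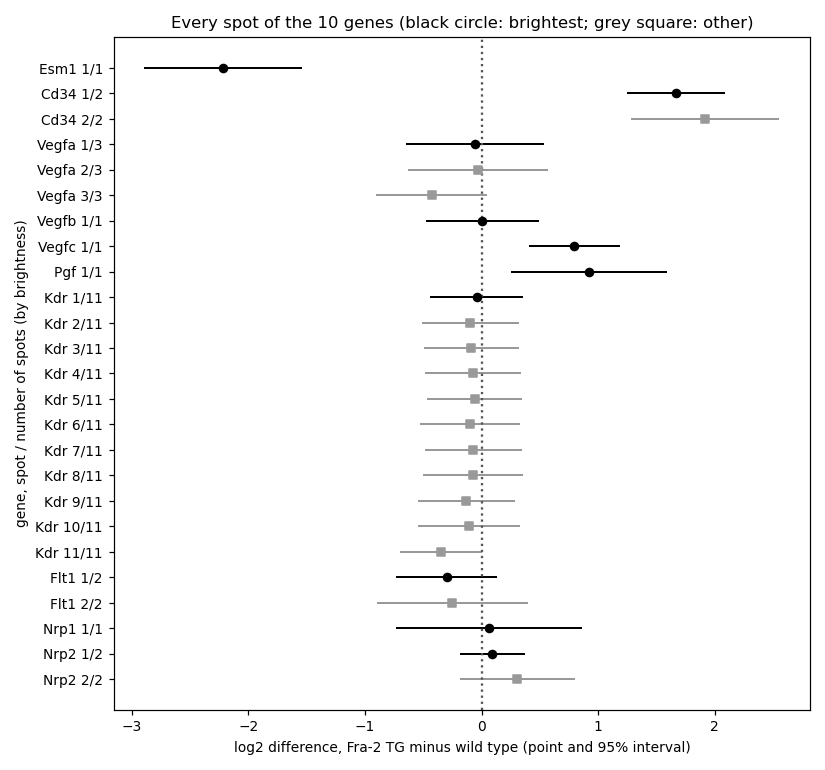
Log2 difference, Fra-2 TG minus wild type (horizontal axis), with its 95% interval for each of the 25 spots of the 10 genes; black circles are the brightest spot of a gene (values of the fit over genes), grey squares its other spots (fit over spots). The intervals of Esm1, Cd34, Vegfc and Pgf exclude 0 on the brightest spot, and those of the other 6 genes hold it.

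Over the 10 genes, 6 differences were positive and 4 negative, with a median of 0.04, and over all genes 52.4% were positive with a median of 0.01. The mice numbered 4 shaped the spread of most members. Wild-type mouse 4 lay below mice 1 to 3 of its group for 6 genes, above them for 3 (Cd34, Kdr and Flt1) and within them for Nrp2. Transgenic mouse 4 lay below its group mates for 7 genes, above them for 0 and within them for 3 (Cd34, Vegfc and Nrp2). Leaving out both mice gave -2.13 for Esm1, 1.86 for Cd34, 0.69 for Vegfc and 0.82 for Pgf, so these 4 differences kept their sign and most of their size.

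**Figure D3:**
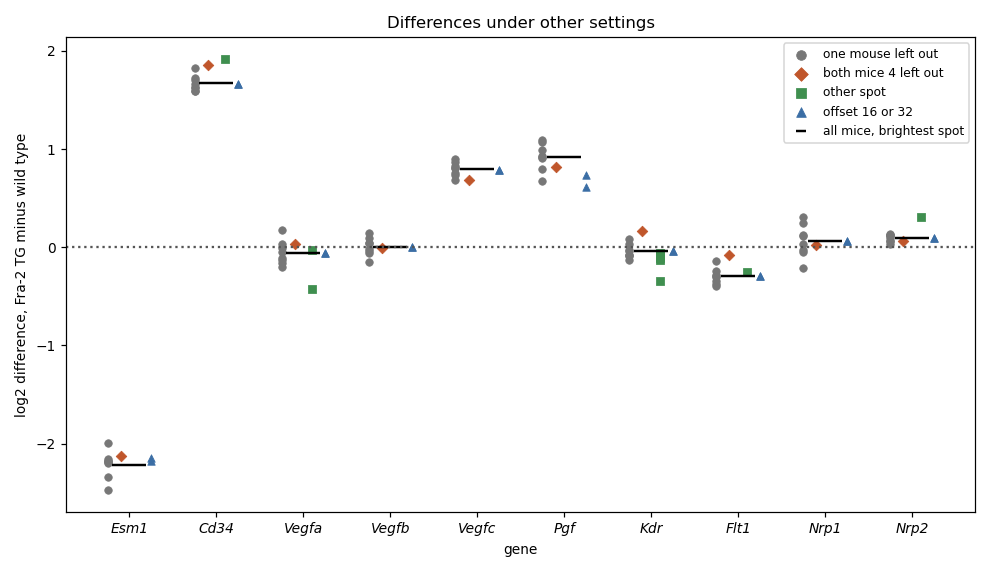
Log2 difference, Fra-2 TG minus wild type (vertical axis), of each of the 10 genes with all mice on the brightest spot (black bar), with 1 mouse left out (grey circles), with both mice numbered 4 left out (orange diamonds), on other spots (green squares) and with offsets of 16 or 32 (blue triangles). Esm1 stays between -2.475 and -1.999 and Cd34 between 1.59 and 1.92, whereas Vegfa, Vegfb, Kdr and Nrp1 lie on both sides of 0.

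Profiles most like those of Esm1 and Cd34 were sought among genes with a mean above the floor, by the root mean square distance between log2 profiles over the 8 arrays after each gene's own mean was taken off. Such a distance carries the group difference for which Esm1 and Cd34 were picked. Nearest to Esm1 were Klri2 (0.37), Xpnpep2 (0.37), Marco (0.43), Gal (0.46) and Klrb1b (0.48), while the median distance to all other genes was 1.203. Klri2 and Klrb1b encode lectin-like receptors of natural killer cells, Xpnpep2 an aminopeptidase, Marco a scavenger receptor of macrophages and Gal the neuropeptide galanin. All 5 were lower in transgenic lung, by -1.65 (Gal) to -2.22 (Klri2, with 2 values under the floor). No gene of the VEGF system or tip cell list was among them. The distance itself fixes that absence, so nothing is read from it. Among the other members and the tip cell list the lowest difference was -1.03 (Apln), too far from that of Esm1.

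Nearest to Cd34 were Pkn3 (0.20), Akr1b8 (0.22), Adgrg3 (0.23), Cd109 (0.25) and Itga6 (0.30), against a median of 0.89. Pkn3 encodes a protein kinase, Akr1b8 an aldo-keto reductase, Adgrg3 an adhesion receptor coupled to G proteins, Cd109 a membrane-anchored protein and Itga6 the integrin alpha 6 chain. Their differences ran from 1.09 (Itga6) to 1.95 (Pkn3), with 2 Cd109 values under the floor. The Cd34 distances were smaller than the Esm1 distances. Itga6 read 13.30, 13.34, 13.51 and 13.95 across wild-type mice, against 14.33, 14.67, 14.81 and 14.65 across transgenic mice. Wild-type mouse 4 was thus the highest of its group, as on the brighter Cd34 spot but not on the dimmer one.

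**Figure D4:**
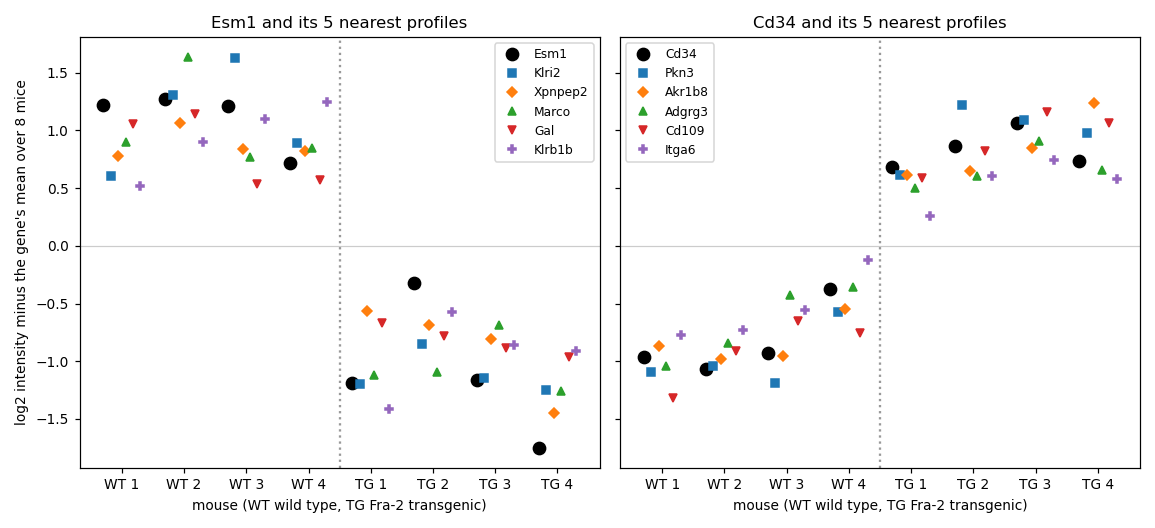
Log2 intensity minus the gene's mean over 8 mice (vertical axis) in each mouse (horizontal axis), for Esm1 (left) and Cd34 (right), drawn as black circles, and for the 5 genes nearest to each by root mean square distance. Points of the Esm1 panel are all above 0 in wild-type and below 0 in transgenic mice, and those of the Cd34 panel the reverse.

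The genes around the VEGF system were described from 22 lists holding 253 distinct measured genes other than the 10. Of these 253, 1 passed the threshold over all genes, Ncr1, which is a natural killer cell gene of the leukocyte list. At an unadjusted limma p under 0.05 there were 22 higher and 23 lower, 17.8% of the 253, against 9.15% of all genes. The lists were chosen with earlier results of these data known, and dim genes are rarer in them than among all genes. The gap between these shares is therefore no test of the lists, and nothing is read from it. The median difference over the 253 was 0.00, against 0.01 over all genes. In what follows, counts of higher and lower genes are at that unadjusted p, and adjusted p-values are limma's over all genes. All list genes named below other than Ncr1 missed the adjusted threshold. Most are named for a small p, so groups that do not overlap carry no further weight among them. Over all genes 3.99% were higher and 2.54% lower without overlap. List medians moved with single mice: in 10 of the 22 lists the median turned sign with 1 mouse left out, and in all 10 it was at most 0.16 in size with all mice.

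Of 8 further VEGF and PDGF ligands and receptors, 0 passed and 0 had an unadjusted p under 0.05 (median 0.07). Flt4, the receptor of VEGF-C, was measured at 6.14, 6.31, 6.28 and 4.43 in wild-type mice and at 6.37, 6.24, 6.23 and 5.70 in transgenic mice. It differed by 0.34 (SE 0.42, limma adjusted p = 0.840), with wild-type mouse 4 under the floor and mouse 4 lowest in both groups. Of 12 semaphorins and plexins that share the neuropilins, 0 passed, 1 was higher and 1 lower (median -0.09). Sema3c differed by 0.67 (SE 0.18, limma adjusted p = 0.282) and Sema3d by -1.0 (SE 0.34, limma adjusted p = 0.431).

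Relays inside the cell had a median near that of all genes. Of 33 genes of VEGF receptor signalling, 0 passed, 1 was higher and 2 lower (median 0.02). Nos3, the endothelial nitric oxide synthase that KDR activates, stood at 11.06 to 11.30 in wild-type and at 11.65 to 12.16 in transgenic mice, a difference of 0.76 (SE 0.14, limma adjusted p = 0.126). Hspb1, a small heat shock protein phosphorylated downstream of KDR, stood at 14.58 to 14.99 and at 14.01 to 14.39, a difference of -0.61 (SE 0.14, limma adjusted p = 0.202). In both genes the groups did not overlap. Of 20 genes that VEGF induces early, 0 passed, 1 was higher and 2 lower (median -0.01): the nuclear receptor gene Nr4a1 differed by -1.12 (SE 0.32, limma adjusted p = 0.342), Ptgs2 by -0.90 and Ets1 by 0.54. In that list 5 genes were dim in both groups.

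Tip cell genes other than Esm1 had mostly positive differences. Of 20 measured, 0 passed, and 6 were higher and 1 lower at the unadjusted p. Differences were positive for 14 and negative for 6, with a median of 0.31 that was 0.31 without both mice numbered 4. Over all 20863 genes, 52.4% were positive, and 1112 were higher and 798 lower at that p. The exception among the 7 tip cell genes at that p was Apln, the apelin ligand, at 9.98 to 10.76 in wild-type and 9.01 to 9.72 in transgenic mice (difference -1.03, SE 0.22, limma adjusted p = 0.185). Lamb1 at -0.35 and Angpt2 at -0.23 were also negative. Unc5b, a guidance receptor, differed by 0.70 (SE 0.17, limma adjusted p = 0.228), Lxn by 0.36 and Col4a1, a basement membrane collagen, by 0.73. Col4a1 had its lowest wild-type value in mouse 4, at 11.88. Of 13 Notch and stalk cell genes 0 passed, 3 were higher and 0 lower, with 11 positive and a median of 0.15, which was 0.01 without transgenic mouse 2 and 0.25 without transgenic mouse 4. The apelin receptor Aplnr differed by 1.56 (SE 0.25, limma adjusted p = 0.0684) and the Notch ligand Jag2 by 0.80 (SE 0.15, limma adjusted p = 0.136), both without overlap between the groups.

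The angiopoietin and Tie list (9 genes, 2 of them dim in both groups, 0 passed, 1 higher, 0 lower, median 0.01) was led by the receptor Tie1 at 0.57 (SE 0.18, limma adjusted p = 0.370). Of 16 angiogenesis inhibitors, 3 of them dim in both groups, 0 passed, 0 were higher and 3 lower (median -0.02). The feedback inhibitors Spry2 and Spry1 differed by -0.74 (SE 0.20, limma adjusted p = 0.296) and -0.63 (SE 0.22, limma adjusted p = 0.431), and Adamts8 by -0.66. Among 10 genes of oxygen sensing, which sets Vegfa transcription, 0 passed and 0 had an unadjusted p under 0.05 (median 0.00). Epas1, which encodes HIF-2 alpha, lay at the top of the scale in both groups, where no difference can be read, and 1 gene of the list was dim in both. Hif1a differed by 0.35 (SE 0.15, limma adjusted p = 0.554).

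Partners of Esm1 were measured beside it. Of 6 genes for proteins that bind endocan, or for their receptors, 0 passed, 0 were higher and 1 lower (median -0.21), the exception being Met, the receptor of hepatocyte growth factor, at -0.64 (SE 0.27, limma adjusted p = 0.518). Of 22 enzymes that build chondroitin and dermatan sulphate, the sugar chain that endocan carries, 0 passed, 3 were higher and 3 lower (median 0.00). Among the 22, 3 were dim in both groups. The 3 lower ones were Ust, a uronyl sulphotransferase, at -0.79 (SE 0.18, limma adjusted p = 0.215), Chst15 at -0.67 and Chpf at -0.42. They were also the 3 of the 22 that were lower without overlap, against 2.54% of all genes. All 3 were picked for a small p, so nothing is read from that. Of the 3 higher ones, Chst11, a chondroitin sulphotransferase, had the smallest p, at 0.34 (SE 0.15, limma adjusted p = 0.528), and Chst7 was the one whose groups did not overlap. The CD34 relatives, selectins and their ligands (9 genes) had 0 passed, 2 higher and 0 lower, with a median of 0.31 that came to 0.04 without both mice numbered 4 and 0.08 with wild-type mouse 4 alone left out. Of these 9, 3 were dim in both groups. Emcn, the endothelial sialomucin endomucin, differed by 1.18 (SE 0.33, limma adjusted p = 0.315) and Podxl2 by 0.56.

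**Figure D5:**
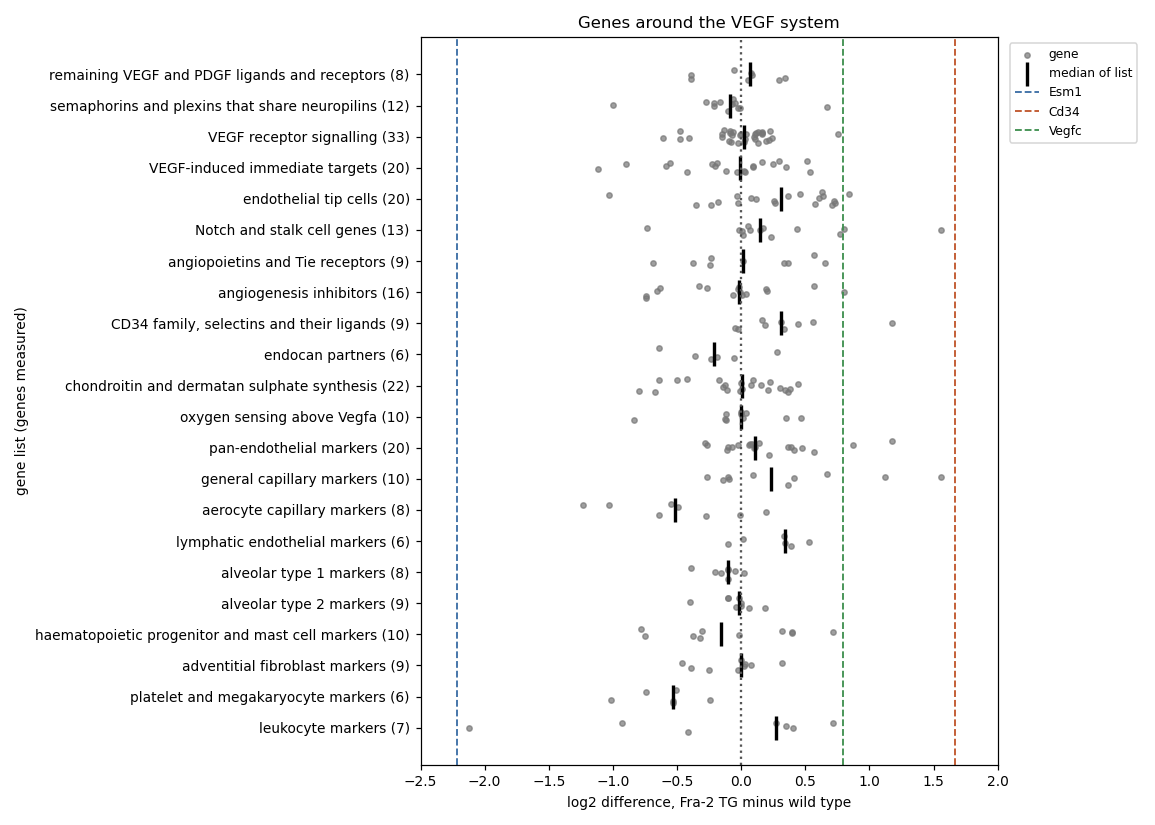
Log2 difference, Fra-2 TG minus wild type (horizontal axis), of each measured gene (grey points, spread vertically for visibility) in 22 lists, with the median of each list as a black bar and dashed lines at Esm1, Cd34 and Vegfc; a gene can be in more than 1 list. No listed gene lies beyond Esm1 on the left or beyond Cd34 on the right, and the nearest points are Ncr1 (-2.12) and Aplnr (1.56).

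Markers of the cells that make or carry these genes were read on the same arrays. Of 20 pan-endothelial markers 0 passed, 3 were higher and 0 lower, with a median of 0.10, which was 0.02 without transgenic mouse 3 and 0.21 without transgenic mouse 4. Sox17 differed by 0.87 (SE 0.14, limma adjusted p = 0.0702), followed by Emcn and Tie1. The summed intensity of the 20 ran from 254743 to 288540 in wild-type mice and from 232932 to 332748 in transgenic mice, so the groups overlapped, and 0 of the 20 were dim in both groups. The part of endothelial cell number in the values of Esm1 and Cd34 was not tested.

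Markers of the 2 capillary cell types of the alveolus had medians of opposite sign, a contrast that was not tested. Of 10 general capillary markers 0 passed, 3 were higher and 0 lower (median 0.23): Aplnr, the chemokine Cxcl12 (1.12, SE 0.25, limma adjusted p = 0.193) and Sema3c. Over that list 6 differences were positive and 4 negative, the lowest being Gpihbp1 at -0.27. Leaving out wild-type mouse 4 brought the median of the list to 0.04, and leaving out transgenic mouse 4 to 0.43. Of 8 measured aerocyte markers 0 passed, 0 were higher and 3 lower, 7 of 8 were negative, and the median was -0.52, or -0.43 without both mice numbered 4. Leaving out wild-type mouse 4 alone gave -0.62, and transgenic mouse 4 alone -0.31. Car4 was the positive marker of this list, at 0.20. Fibin stood at 12.14 to 12.53 in wild-type and 10.53 to 11.59 in transgenic mice (-1.23, SE 0.23, limma adjusted p = 0.136), Apln is given above, and Chst1 differed by -0.55. Summed aerocyte markers ran from 65105 to 93976 and from 49099 to 80670, and general capillary markers from 123155 to 151209 and from 114907 to 190919. Lymphatic markers (6 genes) had 0 passed, 1 higher and 0 lower (median 0.34, or 0.18 without both mice numbered 4 and 0.13 with wild-type mouse 4 alone left out), with Lyve1 at 0.53 (SE 0.13, limma adjusted p = 0.246). Their part in the values of Esm1, Cd34 and Vegfc was not tested.

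Alveolar epithelium is a main source of Vegfa. Of 8 alveolar type 1 and 9 alveolar type 2 markers 0 passed and 0 had an unadjusted p under 0.05, with medians of -0.10 (-0.03 without transgenic mouse 4) and -0.02. Of the type 2 markers, 4 (Sftpc, Sftpb, Sftpa1 and Sftpd) had means within 0.2 of the top of the scale in both groups, so a difference there could hardly be seen. Rtkn2 of the first list differed by -0.39 (SE 0.28, limma adjusted p = 0.711) and Abca3 of the second by -0.40 (SE 0.18, limma adjusted p = 0.554). Summed type 1 markers ran from 121301 to 131599 in wild-type and from 89127 to 131159 in transgenic mice.

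CD34 is also carried by progenitors, mast cells and some fibroblasts. Of 10 progenitor and mast cell markers 0 passed, 0 were higher and 1 lower, Runx1 at -0.38 (median -0.16, turning to 0.16 without transgenic mouse 2), with sums of 29233 to 38276 in wild-type and 36092 to 47356 in transgenic mice. Of 9 adventitial fibroblast markers 0 passed, 0 were higher and 1 lower, Pi16 at -0.46 (median 0.00), with sums of 99900 to 112849 and 112189 to 117556. In both lists the sums of the groups overlapped, and the part of these cells in the Cd34 value was not tested. Ly6a, which is in both lists, is the largest part of the progenitor sum (14.43 in wild-type and 14.74 in transgenic lung). Ly6c1 is the largest part of the fibroblast sum and lay within 0.2 of the top of the scale (15.87 and 15.95). The sums therefore mostly follow these genes rather than the lists. Platelet and megakaryocyte markers, from cells that store VEGF, were all negative: of 6 genes 0 passed, 0 were higher and 4 lower (median -0.53, or -0.66 without both mice numbered 4), led by Ppbp at -0.74 (SE 0.16, limma adjusted p = 0.193) and Gp9 at -1.02 (SE 0.22, limma adjusted p = 0.193). Their sums, 5171 to 5978 in wild-type and 3061 to 4870 in transgenic mice, did not overlap. Pf4, the largest part of these sums (11.89 in wild-type and 11.36 in transgenic lung), did overlap between the groups. Gene by gene, the groups did not overlap in 2 of the 6. The part of platelets and megakaryocytes in the values of the VEGF genes was not tested. Of 7 leukocyte markers 1 fell, Ncr1, by at least 2.77-fold, its transgenic mean being dim (fitted difference -2.12, SE 0.24, limma adjusted p = 0.0150). At the unadjusted p 1 was higher, Cd3e at 0.41, and 2 were lower, Ncr1 and Nkg7 (-0.93). Over the 7, 4 differences were positive and 3 negative, with a median of 0.27, or -0.07 without both mice numbered 4. Ncr1 missed the threshold once wild-type mouse 2, 3 or 4, or transgenic mouse 1, was left out.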

How the data were processed

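RNA of 4 wild-type and 4 Fra-2 TG lungs was labelled with Cy5 and hybridised to single-colour Agilent arrays, per the labels. For 62976 spots the authors deposited linear intensity values, already brought to a common distribution (median 4.74 on the log2 scale on each array). R 2.15.1 and limma 3.14.4 appear in the submitters' processing notes; background correction and normalisation method: not given in the sources used here. Platform symbols (31465 spots) were updated through RefSeq accessions to GRCm38.p6 names, which matched 29050 spots.

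The log2 intensities of the brightest spot of 20863 genes were fitted with limma 3.58.1 (R 4.3.3; lmFit, eBayes, group as the only term), with Benjamini-Hochberg adjustment over all genes, a threshold of 0.05 and two-sided p-values; replicates are separate mice. SEs and 95% intervals are the moderated ones. Secondary spots were fitted over all named spots. Plots used Python 3.11.15 with matplotlib 3.10.9. Members and lists were chosen with earlier results of these data known. Named genes are the 10 members, up to 4 genes of smallest p per list, the 5 profiles nearest to Esm1 and to Cd34, and Fosl2. A few other list genes are given to state a limit or to complete a count. The floor and the motifs other than TGANTCA were chosen after the values were seen. Nothing in the labels ties same-numbered mice. Correlations of deviations between same-numbered mice were 0.138, -0.013, 0.147 and 0.075 for mice 1 to 4. Between mice of different number they ran from -0.163 to 0.106. A factor shared by number was not tested. The alternatives were offsets, scaling, a filter on dim genes, the mean of spots, another variance model, a replicate block and mice left out. The number of arrays limits precision.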

Additional observations from a re-analysis of the deposited data

Results flagged for a closer look

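In groups of 4 mice, a value was singled out where its gap to the nearest other value exceeded Dixon's 95% critical share of the group's range, which about 1 in 20 groups pass by chance. Of 130 groups checked (25 spots of the 10 genes and 40 other list genes, in both genotypes) 11 held such a value, and 8 of the 11 were a mouse numbered 4.

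Among the 10 genes, 4 spots were singled out, each through a mouse 4. Esm1 stood at 11.02 in wild-type mouse 4 and at 11.51 to 11.58 in the other 3. The dimmer Cd34 spot stood at 6.20 in that mouse and at 7.28 to 7.37 in the others. Vegfa stood at 13.64 in transgenic mouse 4 on its brightest spot, against 14.48 to 14.64, and at 12.51 on its dimmest, against 13.21 to 13.28.

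Among other genes, wild-type mouse 4 stood at 12.29 for Cxcl12 (others 12.90 to 13.03), at 7.23 for Sema3d (others 5.78 to 5.91) and at 4.43 for Flt4 (others 6.14 to 6.31). Transgenic mouse 4 stood at 9.13 for Rtkn2 (others 9.97 to 10.02). Transgenic mouse 3 stood at 11.04 for Emcn (others 10.34 to 10.45). Transgenic mouse 1 stood at 12.86 for Lyve1 (others 12.99 to 13.00) and at 5.79 for Met (others 6.47 to 6.60).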

How the results depend on the processing

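Of 175 differences of the 10 genes recomputed under other settings, 172 moved by less than 1 SD between mice; the 3 that moved more were the dimmest spots of Cd34 (1.92), Kdr (-0.35) and Nrp2 (0.31). The sign of Esm1, Cd34, Vegfc, Pgf, Flt1 and Nrp2 was kept in all of theirs. The count of 172 is no measure of robustness. Leaving out 1 mouse, or both mice numbered 4, cannot move a difference by more than that SD. The filter on dim genes, the other variance model and the replicate block leave a difference unchanged. The count of genes past the threshold, 45, became 80 and 88 with offsets of 16 and 32, 73 with dim genes left out, 118 with a trended and robust variance, 17 to 38 with 1 mouse left out and 17 without both mice numbered 4. With the replicate block it was 5. The count among the 10 genes, 2, became 0 with the replicate block, 0 or 1 with 1 mouse left out and 1 without both mice numbered 4. With the trended variance it was 3, the third being Vegfc. The count in the lists, 1, became 3 and 6 with the offsets, 3 with dim genes left out, 2 with the mean of spots, 8 with the trended variance, 0 with the replicate block, 0 or 1 with 1 mouse left out and 0 without both mice numbered 4. The cause of these shifts was not tested. The replicate block left the differences themselves unchanged, at -2.21 for Esm1 and 1.67 for Cd34. Whether same-numbered mice share a factor was not tested, so the calls lost under the block are not set aside. Signals near the floor, as for Pgf, Flt4 and the second Flt1 spot, limit what can be seen of those genes.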
